A study of Mus musculus with 18 samples.

Results

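Cells take up iron by a small set of membrane proteins and build much of it into iron-sulfur clusters, the cofactors of electron transfer and of many enzymes. Messenger RNA of 9 genes of this route was measured in 3 adipose tissues of the mouse: Tfrc and Slc11a2 for uptake, Nfs1, Iscu, Isca1, Isca2, Glrx5 and Bola3 for assembly in mitochondria, and Ciapin1 for assembly in the cytosol. The 9 were taken by symbol from the 54347 rows of the deposited table, and all 9 were among the 18728 genes that passed the filter on low counts. They were chosen by measured values of these same libraries, because Ciapin1 stood out in brown fat. Their brown against white differences are therefore given as a description without p-values, and a count of them past the threshold is printed once, beside the share of all genes, with nothing read from it, whereas the comparisons of white tissues and genotypes were tested.

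Polyadenylated RNA was sequenced from 1 brown and 2 white depots, the interscapular brown (iBAT), the inguinal white (iWAT) and the epididymal white depot (eWAT), of 3 wild type (wt) and 3 knockout (ko) mice at 12 weeks of age, which gave 18 libraries, 3 in each of 6 groups. All animals were of the C57BL/6N background. The authors' methods give a chow diet for the mice of the transcriptome work. Their results, however, speak of high-fat and control diets for the adipose transcriptomes. The ko mice (ΔGm15551) carried a CRISPR/Cas9 deletion that took exon 1 of the long noncoding RNA gene Gm15551, came from a strain crossed back to wild type, and were compared with wt litter mates. The deletion is present in every tissue rather than in adipocytes alone, and the mouse identifiers in the labels show that each animal gave all 3 tissues under 1 replicate number.

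Total estimated counts per library ranged from 14997901 to 34389586, and genes of the mitochondrial genome took 22.9% to 26.99% of them in iBAT against 3.77% to 9.64% in the white tissues. Levels are given as CPM, the count of a gene relative to the total of its library after scaling between libraries. The labels held for the targeted gene, since Gm15551 ran from 1.95 to 11.7 CPM in the 9 wt libraries and did not exceed 0.0970 CPM in any ko library (log2 difference −7.76 ± 0.53, SE, adjusted p = 9.08e-07), and for the tissues, since 6 brown fat markers had sums between 7282 and 12556 CPM in iBAT, between 23.3 and 308 in iWAT and between 3.91 and 13.3 in eWAT. Of the white libraries, 4 held genes of neighbouring tissue. Markers of B and T cells (11 of 11 in the table) summed to 1236 CPM in iWAT wt replicate 3 and 513 in iWAT ko replicate 2 against a median of 23.0 over the 6 iWAT libraries, skeletal muscle markers (10 of 10) reached 4803 CPM in iWAT ko replicate 1 against 7.39 in the next iWAT library, and epididymis markers (10 of 10) reached 5200 in eWAT ko replicate 3 against 42.9 in the next eWAT library. In iBAT and iWAT, 9 of the 10 epididymis markers stood at 3 counts or fewer in every library. Results that rest on these libraries are given with and without them. In whole tissue, fewer cells of a type and less RNA per cell cannot be told apart.

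In mitochondria, the cysteine desulfurase Nfs1 supplies sulfur and the scaffold Iscu holds the cluster while it forms, and the glutaredoxin Glrx5 passes it on. Isca1 and Isca2 then act in building larger clusters, and Bola3 helps deliver them to enzymes such as lipoate synthase. Assembly in the cytosol depends on mitochondria for a sulfur compound and needs Ciapin1, which carries electrons to the cytosolic machinery. Tfrc is the transferrin receptor that brings iron in by endocytosis, and Slc11a2 is the divalent metal transporter that moves iron out of the endosome. Brown adipocytes are packed with mitochondria, whose respiratory complexes contain many iron-sulfur clusters and haems.

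The start of Ciapin1 is shown first, because it lies back to back with that of a second gene with high levels in brown fat. Ciapin1 (ENSMUSG00000031781.14) spans chr8:94819804-94838358 on the minus strand of GRCm38. Its neighbour Coq9 (ENSMUSG00000031782.15), which is needed to make coenzyme Q, spans chr8:94838321-94854895 on the plus strand. In the RefSeq annotation of GRCm38.p6, the start sites of Ciapin1 at 94838340 and of Coq9 at 94838413 are 73 bp apart. The 172 bases that lie in the promoter windows of both genes (chr8:94838291-94838462, plus strand), from RefSeq, are printed with the YY1 core motif AAGATGGCG in capitals.
Ciapin1 and Coq9: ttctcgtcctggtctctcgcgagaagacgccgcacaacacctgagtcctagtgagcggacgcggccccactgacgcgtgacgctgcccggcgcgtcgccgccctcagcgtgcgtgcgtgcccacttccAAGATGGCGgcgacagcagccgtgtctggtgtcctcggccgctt
Searched on both strands, these 9 letters occurred in 461 of 32851 promoter windows (1.40%). Among the 7 genes of the set with a window they occurred in Ciapin1 and Isca2. The YY1 core was 1 of several motifs searched. The CCAAT box occurred in 5 of the 7 genes and in 37.4% of all windows. The GC box (GGGCGG) occurred in 4 and in 35.7%, and the ERR motif (AAGGTCA) in 1 and in 4.72%. The TATA box (TATAAA), the E-box (CACGTG) and the NRF1 motif (GCATGCG) occurred in 0 of the 7, beside 13.6%, 7.15% and 3.58% of all windows. A match in the letters is a description and not a binding site.

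Divergent starts were common in the set. Of the 7 genes with a window, 5 had the start of an opposite-strand gene upstream within 1000 bp, compared with 3303 of 27025 genes with a window (12.2%). The partners were Coq9 for Ciapin1, Romo1 for Nfs1 at 47 bp, Etohd2 for Isca1 at 177 bp, Npc2 for Isca2 at 158 bp and Snhg10 for Glrx5 at 339 bp. Bola3 and Tfrc had none within that distance. Windows for Iscu and Slc11a2 were not used here.

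The second sequence feature concerns Tfrc. Iron regulatory proteins bind short hairpins in messenger RNA when iron is scarce, and those in the 3′ untranslated region of the transferrin receptor protect the message, whereas a single hairpin before the coding sequence blocks translation of ferritin and ferroportin. GENCODE M21 transcripts (GRCm38) were searched for an unpaired C, a 5-base stem, and the loop bases CAGTG followed by A, C or T. The bases that pair with the stem had to come next, with G and T allowed to pair. No mismatch or bulge in the stem was allowed, so a gene without a match may still hold such a hairpin. The search found 4 matches in the 3′ untranslated region of Tfrc, 1 in that of Bola3 and 0 in Slc11a2. Such a match outside the coding sequence was present in 119 of 21745 protein-coding genes (0.547%). The matches are printed 5′ to 3′ on the strand of the gene, with the loop bases in capitals, together with those of Fth1 and Ftl1, the ferritin heavy and light chains, and Slc40a1, the iron exporter ferroportin, which are described further on.
Tfrc, chr16:32631225-32631241: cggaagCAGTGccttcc
Tfrc, chr16:32631604-32631620: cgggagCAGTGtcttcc
Tfrc, chr16:32631669-32631685: cggagaCAGTGatctcc
Tfrc, chr16:32631716-32631732: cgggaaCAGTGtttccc
Bola3, chr6:83358427-83358443: cagaagCAGTGactttt
Fth1, 5′ untranslated region, chr19:9982738-9982754: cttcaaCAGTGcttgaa
Ftl1, 5′ untranslated region, chr7:45459785-45459801: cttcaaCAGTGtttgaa
Slc40a1, 5′ untranslated region, chr1:45925471-45925487: cagctaCAGTGttagct
The stems of the 4 Tfrc matches differed from each other while the loop was fixed by the search. The Bola3 match was found by its letters alone, and nothing is known from these data about binding to it.

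Ciapin1, the gene that brought the set to attention, was well separated between brown and white fat. In iBAT its 6 libraries ran from 92.9 over a median of 121 to 129 CPM, with a mean of 117 ± 13.3 (SD, n = 6). In iWAT they ran from 17.7 over 20.1 to 23.6 CPM, and in eWAT from 19.3 over 20.7 to 24.0 CPM. Every iBAT library lay above every white library, the lowest iBAT value being 3.87 times the highest white one. Within single mice, iBAT exceeded iWAT by 4.01 to 7.14 times and eWAT by 4.58 to 6.17 times. The fitted difference was 5.66-fold against iWAT (log2 fold change 2.50 ± 0.10, SE) and 5.48-fold against eWAT (2.46 ± 0.10). Of all genes tested, 97.9% had a smaller log2 fold change than Ciapin1 against iWAT and 96.6% against eWAT.

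**Figure D1:**
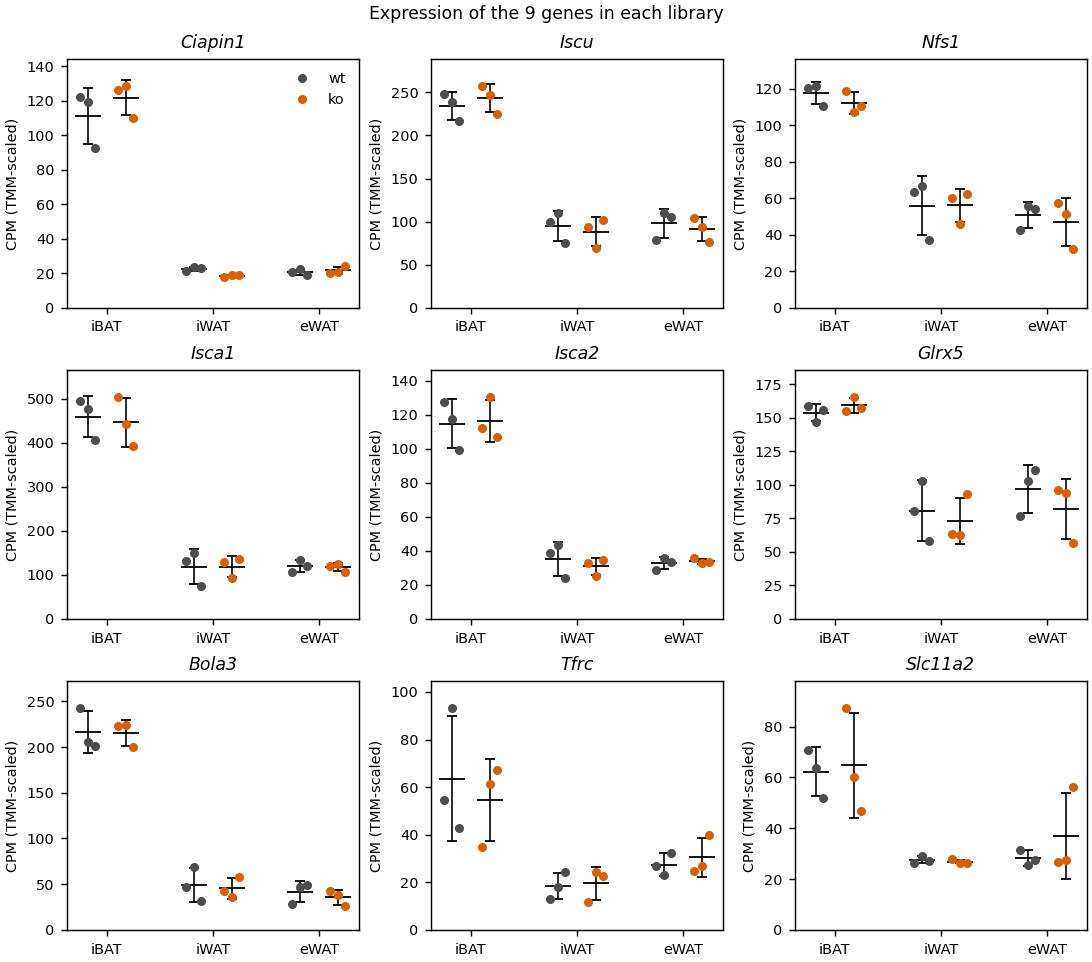
Level of each gene in every library: the x axis gives the tissue and the y axis CPM from 0. Grey points are wt and orange points ko, and the bars give the mean and SD of the 3 libraries of a group. For 7 genes all iBAT points lie above all white points, and for Tfrc and Slc11a2 the eWAT ko replicate 3 point reaches into the iBAT range.

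Of the genes of mitochondrial assembly, Bola3 and Isca1 showed the widest brown against white differences. Bola3 (ENSMUSG00000045160.14) ran from 200 over 214 to 243 CPM in iBAT, from 31.3 over 45.3 to 68.6 in iWAT and from 26.6 over 40.4 to 49.2 in eWAT. Its difference was 4.56-fold against iWAT (log2 fold change 2.19 ± 0.19, SE) and 5.59-fold against eWAT (2.48 ± 0.19). Isca1 (ENSMUSG00000044792.7) ran from 392 over 460 to 505 CPM in iBAT, from 74.1 over 131 to 150 in iWAT and from 107 over 121 to 134 in eWAT. The white ranges of both genes overlapped each other and stayed below the iBAT range. Isca1 differed by 1.93 ± 0.15 (log2, SE) against either white tissue. Its partner Isca2 (ENSMUSG00000021241.7) ran from 99.0 over 115 to 131 CPM in iBAT, from 24.2 over 33.8 to 43.1 in iWAT and from 28.7 over 33.6 to 35.95 in eWAT. The log2 differences of Isca2 were 1.80 ± 0.13 against iWAT and 1.79 ± 0.13 (SE) against eWAT, and none of its white libraries reached its iBAT range.

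The genes that act at the start of the route differed less. The scaffold Iscu (ENSMUSG00000025825.12) ran from 217 over 243 to 258 CPM in iBAT, from 69.2 over 96.6 to 110 in iWAT and from 76.6 over 99.2 to 110 in eWAT. Its difference was 2.61-fold against iWAT (log2 fold change 1.38 ± 0.12, SE) and 2.52-fold against eWAT (1.33 ± 0.12). For Iscu, as for the next 2 genes, every iBAT library was above every white one. The desulfurase Nfs1 (ENSMUSG00000027618.17) ran from 107 over 115 to 122 CPM in iBAT, from 37.4 over 61.3 to 66.9 in iWAT and from 31.9 over 52.7 to 57.2 in eWAT. Glrx5 (ENSMUSG00000021102.4) ran from 147 over 157 to 166 CPM in iBAT, from 58.2 over 72.2 to 103 in iWAT and from 56.4 over 95.2 to 111 in eWAT. Nfs1 was 2.05-fold and Glrx5 2.04-fold higher in iBAT than in iWAT, and 2.35-fold and 1.75-fold higher than in eWAT. Glrx5 had the steadiest level in iBAT, with a coefficient of variation of 3.90% over the 6 libraries.

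The uptake genes were also higher in iBAT, where they varied more between mice than the assembly genes. Tfrc (ENSMUSG00000022797.16) ran from 34.8 over 57.9 to 93.3 CPM in iBAT, from 11.7 over 20.5 to 24.3 in iWAT and from 23.1 over 26.8 to 39.8 in eWAT. Its coefficient of variation in iBAT was 34.9%, against 3.90% for Glrx5 to 11.4% for Ciapin1 over the 7 assembly genes. The fitted difference was 3.10-fold against iWAT (log2 fold change 1.63 ± 0.24, SE) and 2.04-fold against eWAT (1.03 ± 0.24). In 6 of 6 mice Tfrc was higher in brown fat than in both white depots, although the lowest iBAT library lay below the highest eWAT library. Slc11a2 (ENSMUSG00000023030.16) ran from 46.7 over 62.0 to 87.4 CPM in iBAT, from 26.4 over 26.9 to 29.2 in iWAT and from 25.4 over 27.5 to 56.4 in eWAT. It was 2.32-fold higher than in iWAT (log2 fold change 1.22 ± 0.18, SE) and 1.96-fold higher than in eWAT (0.97 ± 0.18). The highest eWAT value belonged to ko replicate 3, the library with epididymis markers, and that animal was the exception among the 6 in having more Slc11a2 in eWAT than in iBAT. Without the 4 libraries with genes of neighbouring tissue the difference of Slc11a2 against eWAT was 1.19 on the log2 scale, and that of Tfrc was 1.14.

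In order of the fitted difference against iWAT, the genes stood as Ciapin1, Bola3, Isca1, Isca2, Tfrc, Iscu, Slc11a2, and Nfs1 with Glrx5. Each step between neighbours in that order was smaller than the sum of their SEs, except the step from Ciapin1 at 2.50 ± 0.10 to Bola3 at 2.19 ± 0.19. Against eWAT, Bola3 at 2.48 ± 0.19 and Ciapin1 at 2.46 ± 0.10 changed places. All 9 genes passed the threshold in both contrasts, where 24.0% of all genes tested were called higher in iBAT than in iWAT and 24.4% higher than in eWAT. The 9 were chosen with this contrast in view, so nothing is read from that count. In 7 of the 9 all iBAT libraries lay above all white libraries, which held for 14.7% of all genes tested. The median log2 fold change of the 9 genes was 1.63 against iWAT and 1.33 against eWAT, beside −0.14 and −0.17 over all genes tested.

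**Figure D2:**
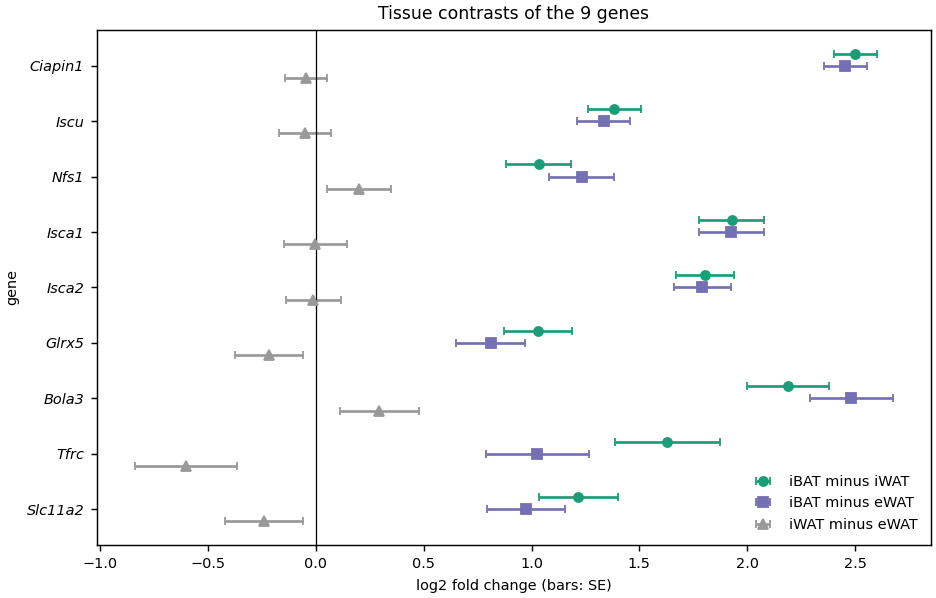
Fitted tissue differences of the 9 genes: the x axis gives the log2 fold change and the bars its SE, with circles for iBAT minus iWAT, squares for iBAT minus eWAT and triangles for iWAT minus eWAT. The brown against white differences run from 0.81 for Glrx5 to 2.50 for Ciapin1, and the triangles lie between −0.60 for Tfrc and 0.29 for Bola3.

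The comparison of the white tissues with each other was not the one on which the genes were chosen. None of the 9 passed the threshold between iWAT and eWAT in edgeR's quasi-likelihood test with Benjamini-Hochberg adjustment, where 5.70% of all genes tested were called higher in iWAT and 4.50% lower. At an unadjusted p under 0.05 there was 1 of the 9, beside 4782 of the 18728 genes tested. DESeq2 called 0 of the 9 and 2705 of all genes, and limma voom 1 of the 9 and 2980 of all genes. That gene was Tfrc, which was lower in iWAT than in eWAT in 6 of 6 mice, with a log2 fold change of −0.60 ± 0.24 (SE, adjusted p = 0.118). With limma voom the adjusted p of Tfrc was 0.0410, and with the mouse as a block in edgeR it was 0.0566. The other 8 genes differed by −0.24 ± 0.18 for Slc11a2 to 0.29 ± 0.18 for Bola3 on the log2 scale. For none of the 9 did the iWAT and eWAT libraries separate without overlap, which they did for 4.62% of all genes tested. Without the 4 libraries with genes of neighbouring tissue, Tfrc differed by −0.57 and Slc11a2 by −0.02.

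The libraries of a tissue departed from its mean in a shared way for the 6 mitochondrial assembly genes. In iWAT, wt replicate 3 and ko replicate 2, the libraries with B and T cell markers, were the 2 lowest of the tissue for all 6 genes. The mean of the 6 genes lay 0.46 below the tissue mean on the log2 scale in the first and 0.33 below it in the second, and 0.40 above it in wt replicate 2. In eWAT ko replicate 3, with epididymis markers, the mean lay 0.36 below, although Isca2 was at the tissue mean, and in eWAT wt replicate 1, which is not among the 4 libraries, it lay 0.23 below with all 6 genes low. In iBAT wt replicate 3 it lay 0.11 below. Ciapin1 was the second highest of its tissue in iWAT wt replicate 3, at 23.1 CPM, the second lowest in iWAT ko replicate 2, at 18.9 CPM, and the highest in eWAT ko replicate 3, at 24.0 CPM. Tfrc was also highest in eWAT ko replicate 3 and high in both iWAT libraries with B and T cell markers, at 24.2 and 24.3 CPM. In those libraries the dividing cell markers summed to 75.8 and 58.3 CPM against a median of 21.9 in iWAT, and the macrophage markers to 1561 and 1498 CPM against a median of 500. The part of any of these markers in the levels was not tested.

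Over the 18 libraries, after the mean of each tissue was removed from log2 CPM, the 15 pairs among the 6 mitochondrial assembly genes had Pearson coefficients of 0.61 to 0.94, with a median of 0.84. Ciapin1 had coefficients of −0.23 to 0.34 with the same 6 genes (median 0.03), Tfrc a median of −0.33 and Slc11a2 of −0.26. These are descriptions, since the libraries share tissue, animal and depth. Without the 4 libraries with genes of neighbouring tissue, 14 libraries were left, the median among the 6 genes was 0.71, and those of Ciapin1, Tfrc and Slc11a2 were 0.37, 0.02 and 0.12. The coefficients of Ciapin1, Tfrc and Slc11a2 with the rest thus changed with these libraries.

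**Figure D3:**
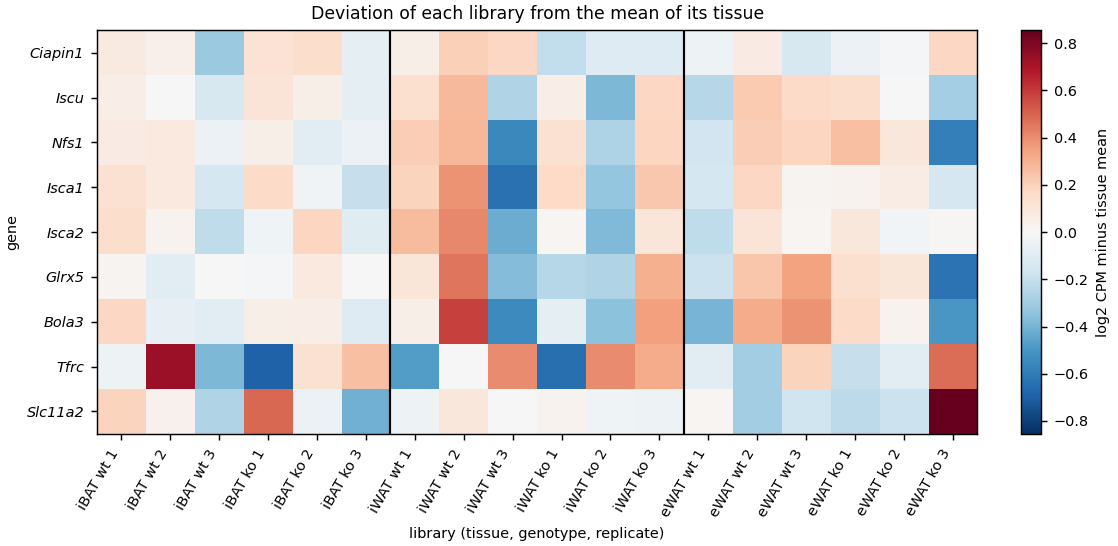
Deviation of each library from the mean of its tissue, in log2 CPM, for the 9 genes (rows) in the 18 libraries (columns), with red above and blue below the mean. The 6 mitochondrial assembly genes are below the mean together in iWAT wt 3, iWAT ko 2, eWAT wt 1 and faintly in iBAT wt 3. They are also below it, except Isca2, in eWAT ko 3 and faintly, except Glrx5, in iBAT ko 3. Ciapin1 is red in iWAT wt 3 and eWAT ko 3 and blue in iWAT ko 2.

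The neighbour Coq9 was, like Ciapin1, higher in brown than in white fat. It ran from 436 over 510 to 560 CPM in iBAT, from 53.1 over 110 to 149 in iWAT and from 56.8 over 80.3 to 93.5 in eWAT. In the edgeR fit it was 4.84-fold higher in iBAT than in iWAT (log2 fold change 2.28 ± 0.21, SE, adjusted p = 1.39e-07) and 6.60-fold higher than in eWAT (2.72 ± 0.21, adjusted p = 1.53e-08). In iWAT wt replicate 3, where Ciapin1 was at 23.1 CPM, Coq9 was at 53.1, the lowest of that tissue. The annotated ends of the genes overlap on opposite strands, and whether strand was used in counting is not given in the sources used here, so reads from the overlap cannot be told apart. On the other side the nearest gene, the chemokine Ccl17, lies 7768 bp away and did not exceed 1.04 CPM in any library, and a pseudogene inside Ciapin1, Gm7418, was listed at 0 in all of them. Polr2c, beyond Coq9, was 1.54-fold higher in iBAT than in iWAT (adjusted p = 3.98e-05).

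Across the 18 libraries, the 10 genes whose log2 CPM followed Ciapin1 most closely were Gm48287, Acsl5, Aph1a, Tmem14c, Tomm22, Rmdn1, Hmg20b, Lncbate10, Mrs2 and Alkbh7. Their Pearson coefficients ran from 0.987 to 0.994, as a description over libraries that fall into brown and white. Tmem14c, needed for haem synthesis in mitochondria, had a log2 fold change of 2.43 for iBAT minus iWAT and Acsl5, an acyl-CoA synthetase, of 3.58. Tomm22 at 1.27, Hmg20b at 1.17 and Aph1a at 1.29 followed Ciapin1 with smaller log2 differences. Of the other 8 genes of the set, Isca2 stood nearest, at rank 111 of 18727 with a coefficient of 0.975, followed by Isca1 at rank 286, and Tfrc stood farthest, at rank 2621 with 0.808. Coq9 was at rank 666.

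The rest of the route was followed in 8 further lists with 102 genes in the table, 100 of them tested. These lists, too, were chosen with earlier results of these data known, which limits what their counts and p-values show. Against iWAT, 55 were higher and 23 lower in iBAT, and against eWAT 55 higher and 22 lower, where 24.0% and 24.4% of all genes tested were called higher and 30.3% and 30.2% lower. All 8 further genes of the core machinery rose in iBAT against both white tissues. The largest differences were those of the acyl carrier protein Ndufab1, a part of the desulfurase complex and of respiratory complex I, at 5.16-fold against iWAT and 6.05-fold against eWAT (adjusted p = 5.65e-08 and 1.44e-08), and of the chaperone Hspa9 at 4.23-fold and 4.56-fold (2.94e-07 and 1.25e-07). The ferredoxin Fdx1 had log2 differences of 1.43 ± 0.16 against iWAT and 1.63 ± 0.16 (SE) against eWAT. The ferredoxin Fdx2, Fdxr, Lyrm4 and Hscb ran from 0.61 to 1.11 against iWAT. The median over the 8 genes was 1.27 against iWAT and 1.40 against eWAT.

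Of 6 genes that act after the core machinery, 5 rose against iWAT and 6 against eWAT, beside 24.0% and 24.4% of all genes tested. Iba57 and Nfu1, which take part in making and delivering larger clusters, were 2.77-fold and 2.63-fold higher than in iWAT (adjusted p = 4.28e-06 and 6.15e-08) and 2.95-fold and 2.83-fold higher than in eWAT. Nubpl, the assembly factor of complex I, had log2 differences of 1.48 ± 0.15 and 1.41 ± 0.15 (SE), and Bola1 of 0.78 ± 0.15 and 0.77 ± 0.15. Gfer had log2 differences of 0.25 ± 0.13 and 0.33 ± 0.13, of which only that against eWAT passed the threshold.

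The cytosolic route, to which Ciapin1 belongs, went in both directions. Of 10 further genes, 6 rose and 2 fell against iWAT, and 6 rose and 1 fell against eWAT. Of all genes tested, 24.0% were called higher and 30.3% lower against iWAT, and 24.4% and 30.2% against eWAT. Ciao2a, a part of the complex that hands clusters to target proteins, was 2.93-fold and 3.60-fold higher in iBAT (adjusted p = 1.18e-09 and 1.31e-10), and Ciao3, the iron-only hydrogenase-like factor, 2.64-fold and 2.91-fold (3.52e-09 and 8.29e-10). Ndor1, the flavoprotein that hands electrons to Ciapin1, had a log2 difference of −0.33 ± 0.13 (SE) against iWAT, which passed the threshold, and of −0.26 ± 0.13 against eWAT, which did not. Nubp1, a scaffold of the cytosolic machinery, differed by −0.09 ± 0.16 and 0.11 ± 0.17, and its partner Nubp2 by 0.88 ± 0.09 and 0.94 ± 0.09. Mms19, which brings clusters to enzymes of DNA replication and repair, fell by 0.53 ± 0.11 on the log2 scale against iWAT and by 0.43 ± 0.11 against eWAT (adjusted p = 0.000884 and 0.00417). Ciao1, Ciao2b and Glrx3 rose, by 0.52 to 0.80 against iWAT, and Bola2 differed by 0.28 ± 0.14 and 0.23 ± 0.14, without passing the threshold. No other gene of the list reached the 2.50 of Ciapin1.

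**Figure D4:**
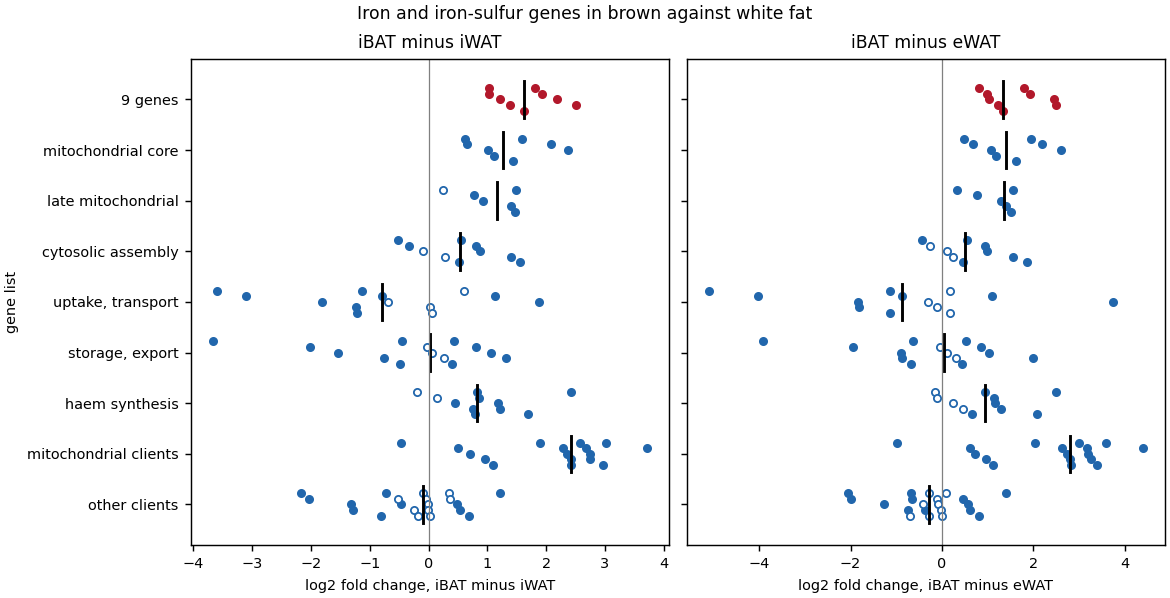
Log2 fold change of iBAT minus iWAT (left) and iBAT minus eWAT (right) for the genes of each list: red points are the 9 genes, drawn filled whatever their p-value, and blue points the other lists, of which filled points passed the threshold and open points did not, and the black bar is the median of the list. Mitochondrial core and late genes lie to the right of 0 throughout, mitochondrial client proteins have medians of 2.42 and 2.81, and the uptake list has medians of −0.80 and −0.87.

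Of 13 genes of iron uptake and transport other than Tfrc and Slc11a2, 2 rose and 7 fell in iBAT against each white tissue. Over all genes tested, too, more were called lower than higher, 30.3% beside 24.0% against iWAT and 30.2% beside 24.4% against eWAT. The transferrin gene (Trf), whose product carries iron in blood, ran from 103 to 291 CPM in iBAT, from 1182 to 2614 in iWAT and from 1404 to 3597 in eWAT. Its log2 differences were −3.60 ± 0.32 against iWAT and −4.02 ± 0.33 (SE) against eWAT (adjusted p = 1.12e-07 and 2.69e-08). Steap2, a metalloreductase, ran from 0.186 to 0.644 CPM in iBAT and from 8.12 to 17.7 in eWAT. The second transferrin receptor Tfr2 went the other way and was 3.69-fold and 13.4-fold higher in iBAT (adjusted p = 0.00224 and 7.44e-06), with 6.98 to 33.4 CPM in iBAT and 1.89 or less in eWAT. Slc39a14, a metal importer, was 2.18-fold and 2.13-fold higher. The list also holds the macrophage gene Cd163, named after its values were seen, with log2 differences of −1.82 ± 0.43 and −1.81 ± 0.42 (SE). The 7 macrophage markers had sums between 57.3 and 144 CPM in iBAT, between 277 and 1561 in iWAT and between 156 and 568 in eWAT, and their part in the levels of the list was not tested.

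Of 14 storage and export genes tested, 5 were higher and 6 lower in iBAT against each white tissue, to be read beside the same shares of all genes. Ferritin heavy chain (Fth1), with the hairpin in its 5′ untranslated region shown above, was 2.10-fold and 2.04-fold higher in iBAT (adjusted p = 6.60e-06 and 7.91e-06). Ferritin light chain (Ftl1), which also holds the hairpin and was named after its values were seen, was lower in iBAT, with log2 differences of −0.45 ± 0.19 and −0.65 ± 0.19 (SE, adjusted p = 0.0489 and 0.00780). Its reads may be shared with pseudogene copies. Ferroportin (Slc40a1), the exporter with a like hairpin, was 2.48-fold and 3.97-fold higher (0.0264 and 0.00223). The ferroxidases that load exported iron onto transferrin were lower in brown fat. Hephaestin (Heph) ran from 4.07 to 7.89 CPM in iBAT and from 31.7 to 105 in iWAT, with log2 differences of −3.67 ± 0.32 and −3.91 ± 0.32 (SE). Ceruloplasmin (Cp) had log2 differences of −2.01 ± 0.18 and −1.96 ± 0.17. Of 11 genes of haem synthesis, 9 rose against iWAT and 7 against eWAT and none fell. Tmem14c and the haem exporter Flvcr1 differed most, the latter by 3.21-fold and 4.23-fold (adjusted p = 0.000111 and 1.29e-05).

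Proteins that carry clusters in mitochondria had the largest median difference of the 8 lists. Of 17 such genes, 16 rose and 1 fell against each white tissue, and the median log2 differences were 2.42 and 2.81. Etfdh, which passes electrons from fatty acid oxidation to coenzyme Q, was 8.08-fold and 12.1-fold higher in iBAT (adjusted p = 8.45e-08 and 9.97e-09). The exception was Mocs1, of molybdenum cofactor synthesis, with log2 differences of −0.48 ± 0.17 and −0.98 ± 0.17 (SE). Of 21 client proteins outside mitochondria, 4 were higher and 7 lower against iWAT and 5 and 7 against eWAT, shares near the 24.0% higher and 30.3% lower and the 24.4% and 30.2% of all genes tested. The helicase Brip1 and the DNA polymerase subunit Pole had log2 differences of −2.18 ± 0.39 and −2.04 ± 0.36 (SE) against iWAT, beside dividing cell markers with sums between 0.99 and 7.60 CPM in iBAT, between 10.2 and 75.8 in iWAT and between 13.97 and 20.9 in eWAT. Their part in the levels of Brip1 and Pole was not tested. Dpyd, which breaks down pyrimidines, was 2.32-fold and 2.62-fold higher in iBAT, and Rsad2 1.44-fold and 1.74-fold.

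Between the white tissues, 8 of the 100 further genes passed the threshold, 4 in each direction, beside 5.70% higher and 4.50% lower of all genes tested. Without the 4 libraries with genes of neighbouring tissue 17 were higher and 3 lower in iWAT, where 2066 of 20162 genes tested were called in either direction. Without iWAT wt replicate 3 alone 10 were higher, where 1624 of 19407 genes tested were called in either direction. Among them was Ciao2a, higher in iWAT by 0.30 ± 0.09 (log2, SE, adjusted p = 0.0368).

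The loss of Gm15551 was compared in each tissue, to ask whether it moved genes of this route. None of the 9 genes passed the threshold in edgeR across tissues, in iBAT, in iWAT, in eWAT or for the interaction of genotype and tissue. DESeq2 and limma voom called 0 of them in each as well. Of all 18728 genes tested, in the same order, DESeq2 called 4, 13, 4, 13 and 0, and limma voom 2, 0, 0, 3 and 0. In edgeR the share of all genes tested that was called was 0.00534% across tissues, 0% in iBAT, 0% in iWAT, 0.00534% in eWAT and 0% for the interaction. In the same test the deleted gene Gm15551 itself had an adjusted p of 0.191 in iBAT, 0.0551 in iWAT and 0.0318 in eWAT. A lack of calls within a tissue therefore says little about a lack of change. The differences across tissues ran from −0.11 ± 0.13 for Glrx5 to 0.13 ± 0.15 for Slc11a2 on the log2 scale (SE). Genotype varied only between mice, but the fits across tissues took the 3 libraries of a mouse as separate. Their SEs and p-values treat 6 mice as 18 libraries and may therefore be too small. At an unadjusted p under 0.05, the 9 genes gave 0 across tissues, 0 in iBAT, 1 in iWAT and 0 in eWAT, beside 411, 238, 415 and 814 of all 18728 genes tested.

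That gene was Ciapin1. In iWAT its wt libraries were at 21.2, 23.6 and 23.1 CPM and its ko libraries at 17.7, 18.9 and 19.0. All ko values lay below all wt values, with a log2 difference of −0.29 ± 0.12 (SE), but the adjusted p was 1. In iBAT the wt libraries were at 122, 119 and 92.9 CPM and the ko libraries at 126, 129 and 110, and in eWAT at 20.5, 22.3 and 19.3 against 20.5, 20.96 and 24.0. In these tissues the ranges overlapped, with log2 differences of 0.13 ± 0.12 and 0.07 ± 0.12. Groups without overlap were found for 1 of the 9 genes in iWAT, 0 in iBAT and 0 in eWAT, beside 4.92%, 4.94% and 5.25% of all genes tested. Of the 3 iWAT ko libraries, replicate 1 held skeletal muscle genes and replicate 2 B and T cell genes, as did wt replicate 3. Without these, wt values of 21.2 and 23.6 CPM stood against a single ko value of 19.0.

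For Slc11a2 in eWAT the ko libraries were at 26.7, 27.4 and 56.4 CPM and the wt libraries at 31.5, 25.4 and 27.7. Only ko replicate 3 stood outside the wt range on the upper side, and the log2 difference was 0.38 ± 0.26 (SE). For Tfrc in iBAT the wt libraries were at 54.4, 93.3 and 43.0 CPM and the ko libraries at 34.8, 61.5 and 67.0, so that the ranges overlapped (log2 difference −0.22 ± 0.35, SE). Of the 100 further genes of the route, 0 passed the threshold in edgeR in any genotype comparison. DESeq2, limma voom and edgeR with the replicate number as a block each called 1 across tissues, Cdk5rap1, and 0 within a tissue or for the interaction. Across tissues they called 4, 2 and 3 of all 18728 genes tested. In the edgeR fit without the block, 2 across tissues, 1 in iBAT, 2 in iWAT and 1 in eWAT were at an unadjusted p under 0.05. Of all 18728 genes tested, 411, 238, 415 and 814 were, in the same order.

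**Figure D5:**
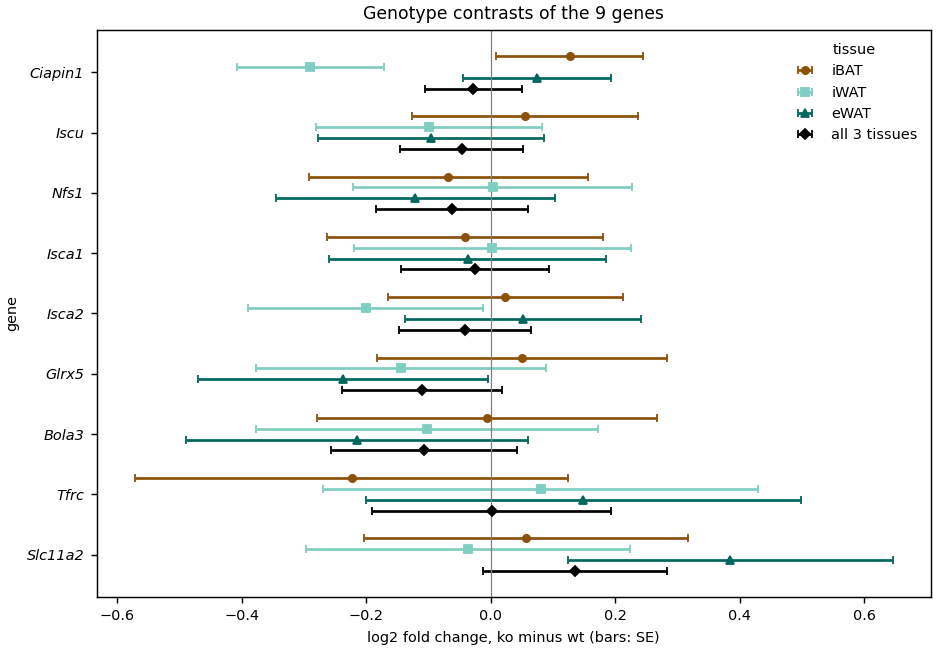
Fitted genotype differences of the 9 genes: the x axis gives the log2 fold change of ko minus wt with its SE, in each tissue and, as black diamonds, across the 3 tissues. The points lie between −0.29 for Ciapin1 in iWAT and 0.38 for Slc11a2 in eWAT, and none passed the threshold.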

How the data were processed

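Polyadenylated RNA libraries (NEBNext Ultra II) were sequenced as paired reads. The authors trimmed the reads by cutadapt, ran salmon on GENCODE M22 (GRCm38), alone or with RNAcentral, and deposited estimated counts per gene as whole numbers. Versions, the use of strand and how transcripts were summed to genes are not given in the sources used here. The estimated counts were tested in R 4.3.3 in edgeR 4.0.16 by its quasi-likelihood test, after filterByExpr by group and scaling by the trimmed mean of M values (TMM). Tissue and genotype terms gave the tissue contrasts and the genotype effect across tissues, and 1 mean per group gave genotype within a tissue and the interaction. Benjamini-Hochberg adjustment ran over 18728 genes, with a threshold of 0.05. Each SE was obtained as the absolute log2 difference over √F, and CPM values are TMM-scaled. A CPM value has counting error besides the spread between mice, and the 9 genes had between 302 and 7984 counts in a library. Alternatives were the size factors of DESeq2, DESeq2 1.42.0, limma voom (limma 3.58.1) with quality weights, other filters, no mitochondrial genome genes, a mouse or replicate block, subsets of libraries, and, added after seeing the data, leaving out the 4 libraries with genes of neighbouring tissue. Libraries of 1 genotype and replicate number carry the same mouse identifier in the labels, so numbers pair the tissues; deviations from the group means correlated by −0.17 to 0.33 between the tissues of a mouse.

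The 9 genes and the lists were chosen with earlier results of these data known. Named were the 9 genes, every gene of the assembly lists, the 2 called genes with the largest and the 2 with the most negative mean difference of each further list, the 10 genes most like Ciapin1, and its neighbours. Of 2 rows for Ndor1 the larger was used, and transferrin was matched as Trf. Hbb-bs was not matched. Gene positions and hairpins came from GENCODE M21 (GRCm38), and promoter windows from RefSeq (GRCm38.p6). Some genes that this rule names are not reported here, though they count in their lists.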

Additional observations from a re-analysis of the deposited data

Results flagged for a closer look

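Slc11a2 in eWAT ko replicate 3 lay far from the other libraries of its tissue, at 56.4 CPM against 31.5 in the next highest of the 6 eWAT libraries. The gap took 0.803 of the whole range, above Dixon's 95% critical value for 6 samples. The same library held the epididymis markers, at 5200 CPM in sum, and their part in the level was not tested. Of 27 comparisons of 9 genes in 3 tissues this was the 1 beyond its critical value, where chance gives about 1 in 20, or 1.35.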

How the results depend on the processing

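The direction of the brown against white differences of the 9 genes was fixed by their choice, so nothing is read from its holding under the alternatives. For the 100 further genes, the 23 lower in iBAT than in iWAT became 14 with wild type libraries only. Over all genes tested, the calls in either direction went from 10164 of 18728 to 6595 of 17450. Between iWAT and eWAT, limma voom called 1 of the 9 genes, Tfrc. The 4 further genes higher in iWAT became 2 without a filter, 10 in DESeq2, 14 in voom and 0 with wild type only. With both tissues alone there was 1, and without both iWAT libraries with B and T cell genes there were 12. Without the 4 libraries with genes of neighbouring tissue there were 17, and 2 to 10 when single libraries were left out. Over all genes tested, 1911 were called in either direction in the main fit. In the same order of alternatives, 1505, 2705, 2980, 247, 854, 1527 and 2066 were called, and 1080 to 2117 without single libraries. Between 17450 and 38809 genes were tested in these alternatives. The 4 lower became 2, 1 and 2 without a filter, with wild type only and with both tissues alone, 1 without the B and T cell libraries, and 2 to 4 without single libraries (2 without iWAT ko replicate 2). Small log2 differences changed sign. For iWAT minus eWAT, Ciapin1 was 0.13 with wild type only and 0.041 without the 4 libraries. Iscu was 0.097 without the B and T cell libraries, 0.077 without the 4, and −0.11 to 0.020 without single libraries. Isca1 was 0.0049 with at least 10 counts, 0.068 in voom, 0.20 without the B and T cell libraries, 0.20 without the 4, and −0.088 to 0.11 without single libraries. Isca2 was 0.10 in voom, 0.11 with wild type only, 0.17 and 0.23 without these libraries, and −0.10 to 0.071 without single ones. Slc11a2 was 0.00096 in voom. For ko minus wt across tissues, without the 4 libraries Ciapin1 was 0.011, Iscu 0.022, Glrx5 0.013, Tfrc −0.023 and Slc11a2 −0.012, and Ciapin1 was 0.0019 without the B and T cell libraries. Tfrc was −0.0028 without genes of the mitochondrial genome, −0.058 in voom and −0.032 with the replicate number as a block, and Slc11a2 −0.023 in voom. Without single libraries the ranges were −0.13 to 0.0017 for Nfs1, −0.10 to 0.026 for Isca1, −0.095 to 0.012 for Isca2, −0.078 to 0.12 for Tfrc and −0.0098 to 0.19 for Slc11a2. The causes were not tested. The mouse as a block changed no call of the 9 genes. Across genotypes, libraries of the same number came from different mice. Their deviations correlated by −0.47 to 0.55, beside −0.17 to 0.33 between the tissues of a mouse. Whether the number marks anything else that they share was not tested. The replicate number as a block left 0 of the 9 genes called.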

Other observations

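Cdk5rap1, an iron-sulfur enzyme that modifies mitochondrial transfer RNA, is named here after its values were seen. Its ko libraries ran from 24.9 to 34.4 CPM and its wt libraries from 13.5 to 18.4 in iBAT, from 13.2 to 15.6 against 7.78 to 10.7 in iWAT, and from 13.2 to 19.0 against 9.36 to 13.3 in eWAT. Across tissues the log2 difference was 0.64 ± 0.11 (SE). Its adjusted p was 0.288 in edgeR, 0.000301 in DESeq2, 0.0211 in limma voom and 0.00311 in edgeR with the replicate number as a block. The call thus depended on the tool and on the block. Each of these fits took the 3 libraries of a mouse as separate, although genotype varied only between the 6 mice. Over the other alternatives the adjusted p was between 0.121 and 1.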
